A study of Psammomys obesus with 8 samples.

Results

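BK channels are large-conductance potassium channels that open when the membrane depolarises and calcium rises inside the cell. The genes described here are Kcnma1, which encodes the pore-forming alpha subunit, and Kcnmb1, Kcnmb2 and Kcnmb4, which encode beta subunits that set how the pore responds. The 4 genes were chosen by name, with results of the comparison of standard-low with low-low offspring already known. Their members are the contigs, short assembled stretches of sand rat DNA, whose mouse match lies inside one of these genes (distance 0). There were 70 such contigs among 548060, of which 125082 lay inside any of 19098 mouse genes: 11 in Kcnmb4, 35 in Kcnma1, 2 in Kcnmb1 and 22 in Kcnmb2.

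The tissue was the hypothalamus, taken at 16 weeks from male offspring of the fat sand rat (Psammomys obesus), and no strain or genotype is given in the labels. The 4 standard-low libraries carry a standard lipid diet label and the 4 low-low libraries a low lipid diet label. The deposited description names paternal diet as what differed, while the title speaks of parental diet, and the labels do not say whose diet each word of a group name stands for. Fragments with methylated CpG were captured with MethylMiner, a methyl-CpG binding protein kit, and sequenced, so that a count over a contig reflects captured DNA. Totals over all contigs ran from 11646180 to 12156525 counts in standard-low and from 12528388 to 13533441 in low-low.

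Channels with the beta 4 subunit of Kcnmb4 are typical of neurons, where the subunit slows activation and makes the channel resistant to the scorpion toxin iberiotoxin. The beta 1 subunit of Kcnmb1 belongs mainly to smooth muscle, where it raises the sensitivity of the channel to calcium. The beta 2 subunit of Kcnmb2 carries an N-terminal segment that inactivates the channel, as is known from adrenal chromaffin cells. In neurons, BK channels shape the fast repolarisation after an action potential and the release of transmitter.

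The contigs are sand rat sequence, and the gene names rest on similarity to mouse. The following stretches are from 3 of the 4 Kcnmb4 contigs with the largest parts of its difference (the other, 1696732, is printed further on), or stand for the other genes. CpG dinucleotides, the sites that the capture reads when methylated, are in capitals. Each stretch is the 300 bases of its contig with the most CpG, as deposited. Positions are those of the mouse match in the table, in mouse coordinates of a build that the sources do not state. Contig 1095988 of Kcnmb4, matched at chr10:116470839-116471155, has 10 of its 30 CpG in the stretch, contig 1100839 (chr10:116452911-116452946) has 10 of 11 and contig 1621920 (chr10:116426698-116426890) has 9 of 14. The Kcnma1 contig 1014682 (chr14:23308855-23309388) has 19 of 20, the Kcnmb1 contig 4122549 (chr11:33964613-33964856) 6 of 6 and the Kcnmb2 contig 1564652 (chr3:32097393-32097817) 7 of 9.
Kcnmb4 contig 1095988: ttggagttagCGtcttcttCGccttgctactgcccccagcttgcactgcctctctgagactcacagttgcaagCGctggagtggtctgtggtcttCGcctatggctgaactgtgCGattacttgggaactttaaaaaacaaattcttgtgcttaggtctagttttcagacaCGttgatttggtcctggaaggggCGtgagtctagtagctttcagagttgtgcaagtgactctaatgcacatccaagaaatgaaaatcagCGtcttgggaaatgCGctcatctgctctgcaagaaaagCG
Kcnmb4 contig 1100839: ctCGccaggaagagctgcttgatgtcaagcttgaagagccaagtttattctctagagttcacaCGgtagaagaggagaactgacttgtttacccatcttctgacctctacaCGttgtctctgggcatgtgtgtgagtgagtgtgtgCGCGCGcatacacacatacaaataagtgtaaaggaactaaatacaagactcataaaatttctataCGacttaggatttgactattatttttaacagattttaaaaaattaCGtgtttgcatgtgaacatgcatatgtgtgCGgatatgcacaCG
Kcnmb4 contig 1621920: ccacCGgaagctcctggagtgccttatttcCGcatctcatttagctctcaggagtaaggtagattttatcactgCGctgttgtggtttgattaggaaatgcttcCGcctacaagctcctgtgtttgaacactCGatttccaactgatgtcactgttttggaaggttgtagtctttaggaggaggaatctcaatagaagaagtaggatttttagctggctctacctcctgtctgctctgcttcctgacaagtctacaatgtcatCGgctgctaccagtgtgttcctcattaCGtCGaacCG
Kcnma1 contig 1014682: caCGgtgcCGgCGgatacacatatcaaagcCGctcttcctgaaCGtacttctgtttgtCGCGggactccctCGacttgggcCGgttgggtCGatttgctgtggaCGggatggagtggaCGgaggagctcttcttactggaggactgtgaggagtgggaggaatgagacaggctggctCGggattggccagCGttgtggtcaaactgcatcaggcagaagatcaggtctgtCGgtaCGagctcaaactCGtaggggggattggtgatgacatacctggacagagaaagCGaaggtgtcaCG
Kcnmb1 contig 4122549: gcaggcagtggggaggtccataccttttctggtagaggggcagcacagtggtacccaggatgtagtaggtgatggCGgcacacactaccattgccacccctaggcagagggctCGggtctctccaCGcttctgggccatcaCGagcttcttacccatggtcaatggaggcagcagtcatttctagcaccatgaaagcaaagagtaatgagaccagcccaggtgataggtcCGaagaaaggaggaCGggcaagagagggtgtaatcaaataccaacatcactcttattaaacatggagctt
Kcnmb2 contig 1564652: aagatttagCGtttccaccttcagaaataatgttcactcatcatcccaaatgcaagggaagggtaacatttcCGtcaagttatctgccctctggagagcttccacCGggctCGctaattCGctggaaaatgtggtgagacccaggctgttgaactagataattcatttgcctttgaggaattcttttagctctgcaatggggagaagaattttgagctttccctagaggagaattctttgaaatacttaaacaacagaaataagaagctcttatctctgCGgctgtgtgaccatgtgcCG

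Mouse similarity placed these contigs with very different firmness. In Kcnmb2 the median contig was aligned over 84.3% of its length and in Kcnmb1 over 87.4%, against 35.3% in Kcnma1 and 29.7% in Kcnmb4. Of the 11 Kcnmb4 contigs, 2 were aligned over at least 50% of their length, and contig 1100839 had a match of 36 bases. The corresponding counts were 17 of 35 in Kcnma1, 2 of 2 in Kcnmb1 and 16 of 22 in Kcnmb2. A BLAST search of the whole table found other contigs resembling 6 of the 11 Kcnmb4 contigs, 5 of 35 in Kcnma1, 0 of 2 in Kcnmb1 and 2 of 22 in Kcnmb2. The Kcnma1 contig 2888814 resembled 11491 other contigs, the most of any of the 70.

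In Kcnmb4, 3 contigs were matched to overlapping mouse positions within chr10:116421690-116421928, namely 104871, 2119292 and 1696732. They resembled 4, 11 and 19 other contigs of the table. Contigs 1696732 and 2119292 were picked as those with the highest and the lowest log2 fold change in Kcnmb4. They share a stretch with 83.1% identity over 148 aligned columns, so both are counted as Kcnmb4 although part of their sequence is alike. CpG are again in capitals.
Kcnmb4 contig 1696732, bases 1 to 147: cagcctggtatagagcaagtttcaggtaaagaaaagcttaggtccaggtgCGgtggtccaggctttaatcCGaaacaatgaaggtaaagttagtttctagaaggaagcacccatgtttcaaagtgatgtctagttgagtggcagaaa
Kcnmb4 contig 2119292, bases 459 to 605: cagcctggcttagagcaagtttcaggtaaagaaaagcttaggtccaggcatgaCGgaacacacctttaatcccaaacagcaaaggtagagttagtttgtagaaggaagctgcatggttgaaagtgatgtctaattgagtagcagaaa

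Summed over its 11 contigs, Kcnmb4 was captured more in standard-low than in low-low hypothalamus. The summed level was 19.4, 22.7, 19.3 and 19.6 CPM (counts scaled to a common library total, with TMM factors) in standard-low libraries 1 to 4, and 15.4, 15.5, 17.4 and 14.8 CPM in low-low libraries 1 to 4. All 4 standard-low values lay above all 4 low-low values, and standard-low 2 was the highest. The means were 20.3 ± 1.63 CPM in standard-low and 15.8 ± 1.13 in low-low (SD, n = 4 each), a 1.28-fold higher level. The log2 fold change was 0.36 ± 0.09 (SE). This and every other SE of a log2 fold change was worked back from the F statistic of the edgeR fit. Ordered by log2 fold change, Kcnmb4 stood at rank 602 of all 19098 gene sums and at rank 1 of the 3736 genes with at least 10 contigs, a limit just under its own 11. Because the genes were chosen with this contrast known, these values, the SE included, are a description and no p-value is given for them.

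The pore gene Kcnma1 had the most contigs and overlapping groups. Its summed level was 80.2, 69.8, 67.2 and 74.0 CPM in standard-low and 71.1, 73.5, 69.0 and 74.0 CPM in low-low. The means were 72.8 ± 5.65 CPM in standard-low and 71.9 ± 2.35 in low-low (SD, n = 4 each), with a log2 fold change of 0.02 ± 0.06 (SE). The Kcnma1 difference was smaller than the spread between libraries.

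Kcnmb1, the smooth muscle subunit, had a summed level of 2.22, 2.19, 2.65 and 2.45 CPM in standard-low and 2.29, 2.30, 2.73 and 2.38 CPM in low-low. The groups overlapped, and the log2 fold change was -0.02 ± 0.19 (SE), from 26 to 32 counts a library in standard-low and 30 to 34 in low-low.

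Kcnmb2 lay between Kcnmb4 and the other genes. Its summed level was 39.2, 47.0, 41.7 and 39.1 CPM in standard-low and 38.2, 35.6, 36.8 and 37.5 CPM in low-low. The lowest standard-low library was above the highest low-low library, with standard-low 2 again the highest. The means were 41.7 ± 3.69 CPM in standard-low and 37.0 ± 1.11 in low-low (SD, n = 4 each), a 1.13-fold higher level and a log2 fold change of 0.17 ± 0.07 (SE). By log2 fold change, Kcnmb2 had rank 2143, Kcnma1 rank 6964 and Kcnmb1 rank 9239 of all gene sums, and Kcnmb2 had rank 38 and Kcnma1 rank 1125 among the genes with at least 10 contigs.

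**Figure D1:**
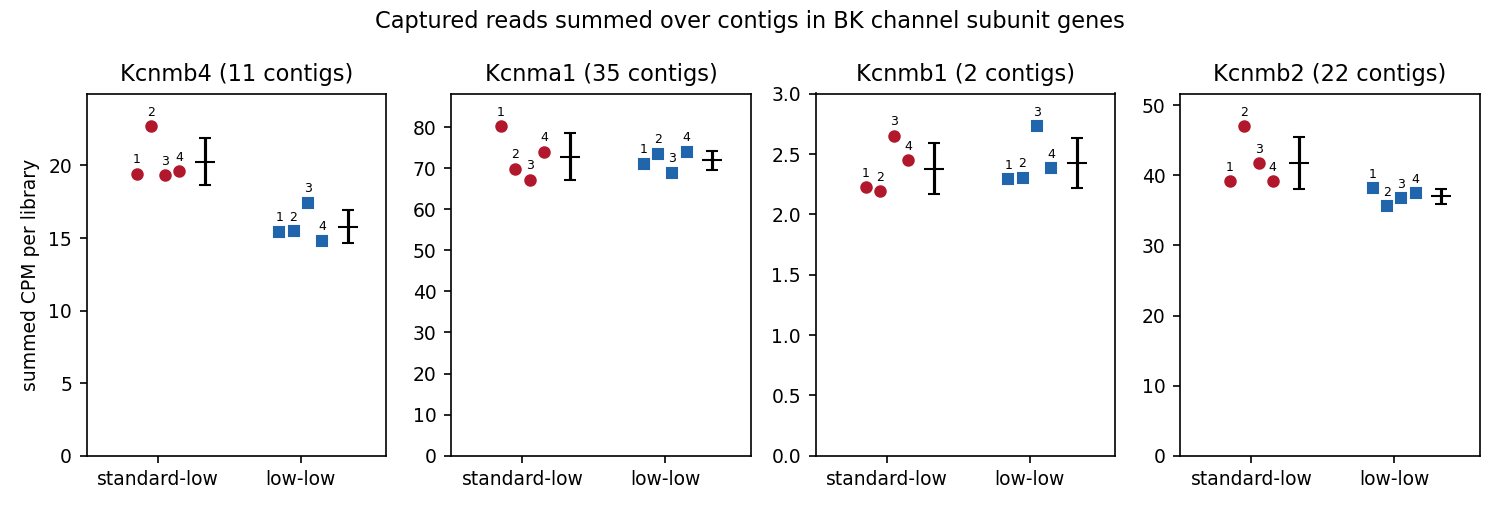
Summed CPM per library (y axis, from 0) over the contigs inside each gene, with standard-low libraries as red circles and low-low libraries as blue squares, numbered by replicate, and mean ± SD beside them (n = 4 each). The 4 standard-low values of Kcnmb4 sit between 19.3 and 22.7 and the low-low values between 14.8 and 17.4, while the Kcnma1 and Kcnmb1 groups overlap.

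In the fit over all gene sums, 0 of the 4 genes passed an edgeR adjusted p of 0.05, where 0.00524% of all genes did. The groups did not overlap, with standard-low higher, for 2 of the 4 genes, against 1.4% of all genes, and the choice of the genes used this contrast. The median log2 fold change over all 19098 gene sums was -0.03, and 41.4% were positive. At single contigs, 0 of 70 passed an adjusted p of 0.05, against 0.0268% of all contigs. At 2 of the 70 contigs, or 2.86%, the groups lay apart, against 3.24% of all contigs: 1 was higher in standard-low, where 1.63% of all contigs were, and 1 lower, where 1.61% were. DESeq2 and limma voom also called 0 of the 4 genes and 0 of the 70 contigs. The libraries are from bulk tissue and no input DNA was analysed here, so a difference in methylation per cell and a difference in the mix of cells or in the copies of a sequence cannot be told apart.

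Within Kcnmb4, 10 of 11 contigs had a positive and 1 a negative log2 fold change, with a median of 0.36. Over all contigs the median was 0.002 with 50.3% positive, and over all contigs inside genes -0.017 with 47.4% positive. In Kcnmb2 18 were positive and 4 negative (median 0.15), in Kcnma1 20 and 15 (median 0.03), and in Kcnmb1 1 and 1. The genes were chosen with this contrast known, so these counts of signs are a description and were not tested. Contigs of 1 gene share their libraries and are not replicates of the groups.

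Contig 1095988, the most heavily captured in Kcnmb4 and the nearest of the 11 to the high-coordinate end of the gene, had 3.85, 6.58, 3.15 and 4.99 CPM in standard-low and 2.90, 3.79, 4.17 and 3.61 CPM in low-low. The groups overlapped, with standard-low 2 highest and low-low 1 lowest. Its log2 fold change was 0.36 ± 0.18 (SE), and it gave 22.8% of the summed Kcnmb4 difference of 4.48 CPM.

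Contig 1100839 had 2.22, 2.28, 2.82 and 0.93 CPM in standard-low and 0.993, 1.26, 0.722 and 1.46 CPM in low-low. It was high in 3 standard-low libraries, while standard-low 4 fell among the low-low values. Its log2 fold change was 0.88 ± 0.28 (SE), it gave 21.3% of the summed difference, and its name rests on the 36-base match given above.

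Contig 1696732, one of the alike pair printed above, had 1.37, 1.10, 2.82 and 1.44 CPM in standard-low and 0.84, 0.743, 1.04 and 0.691 CPM in low-low. It was the only Kcnmb4 contig at which the groups did not overlap, with a log2 fold change of 1.02 ± 0.31 (SE) and 19.0% of the summed difference. Contig 2119292, the other of the pair, had 2.82, 2.53, 2.32 and 2.54 CPM in standard-low and 2.98, 2.15, 2.89 and 2.23 CPM in low-low, with a log2 fold change of -0.004 ± 0.21 (SE). The pair was picked as the highest and lowest log2 fold change in Kcnmb4, so their unlike values were set by that choice. The other contig at that mouse stretch, 104871, had a log2 fold change of 0.19 ± 0.33 (SE). These contigs were not tested against each other.

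Contig 1621920 had 1.03, 2.11, 1.82 and 2.20 CPM in standard-low and 0.993, 1.11, 1.53 and 0.922 CPM in low-low, and gave 14.5% of the summed difference (log2 fold change 0.65 ± 0.28, SE). Standard-low 1 lay among the low-low values and the other standard-low libraries above them. The remaining 6 Kcnmb4 contigs had log2 fold changes from 0.02 to 0.48.

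**Figure D2:**
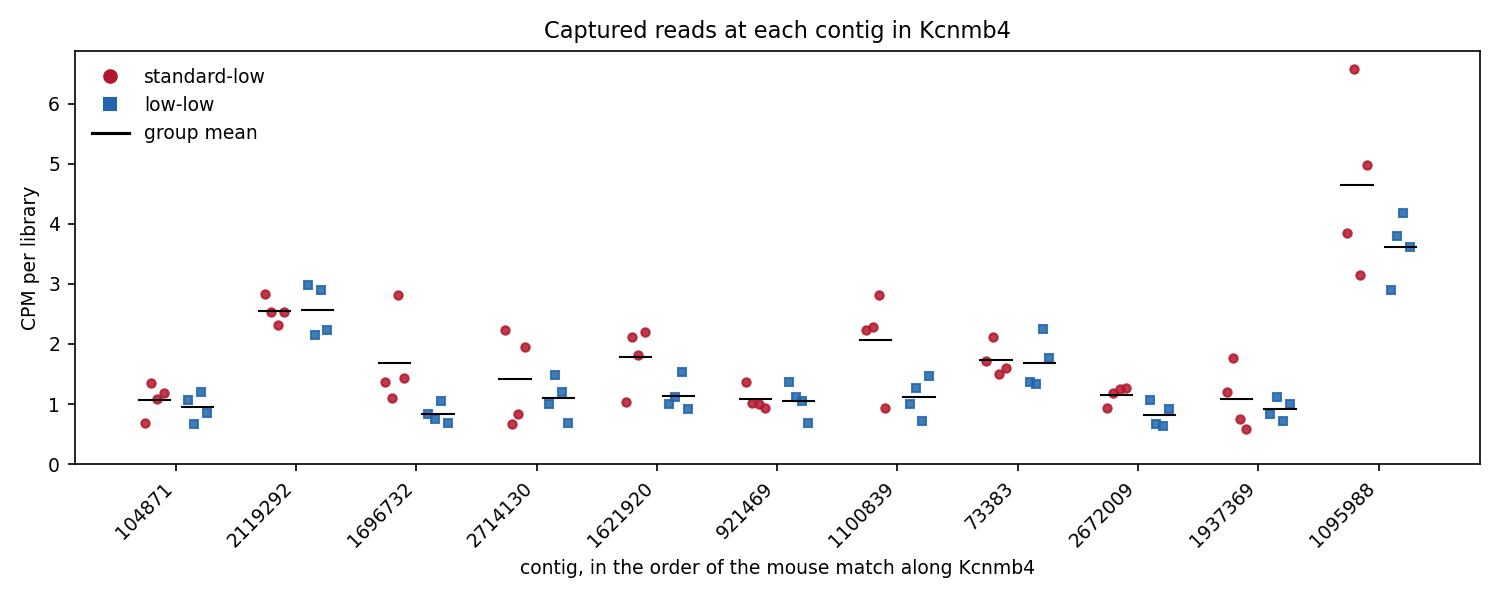
CPM per library (y axis, from 0) at each of the 11 Kcnmb4 contigs (x axis, ordered by mouse match), with red circles for standard-low, blue squares for low-low and black lines for group means. Contig 1095988 is the most captured, with 3.15 to 6.58 CPM in standard-low and 2.90 to 4.17 in low-low, and contig 1696732 is the one where the groups do not overlap.

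The Kcnmb4 sum was also taken over parts of its contigs, as a description, since the gene was chosen with this contrast known. Leaving out each contig in turn, an alternative added after the data were seen, gave ratios of standard-low to low-low means from 1.24 to 1.34. The groups stayed apart except without contig 1100839, where the lowest standard-low sum was 16.5 CPM and the highest low-low sum 16.7 CPM. Without contig 1696732 they were narrowly apart, with a lowest standard-low sum of 16.5 CPM and a highest low-low sum of 16.4 CPM. With the 5 contigs that resembled no other contig, also added after the data were seen, the log2 fold change was 0.40. The libraries in which a contig had its highest value differed: 3 contigs peaked in standard-low 2, 2 each in standard-low 3 and 4, 1 in standard-low 1, 2 in low-low 1 and 1 in low-low 3. With the 3 contigs of at least 20 counts a library on average (2119292, 73383 and 1095988), the log2 fold change was 0.23. In summed CPM the groups then overlapped, and standard-low 3 had the lowest sum of any library.

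**Figure D3:**
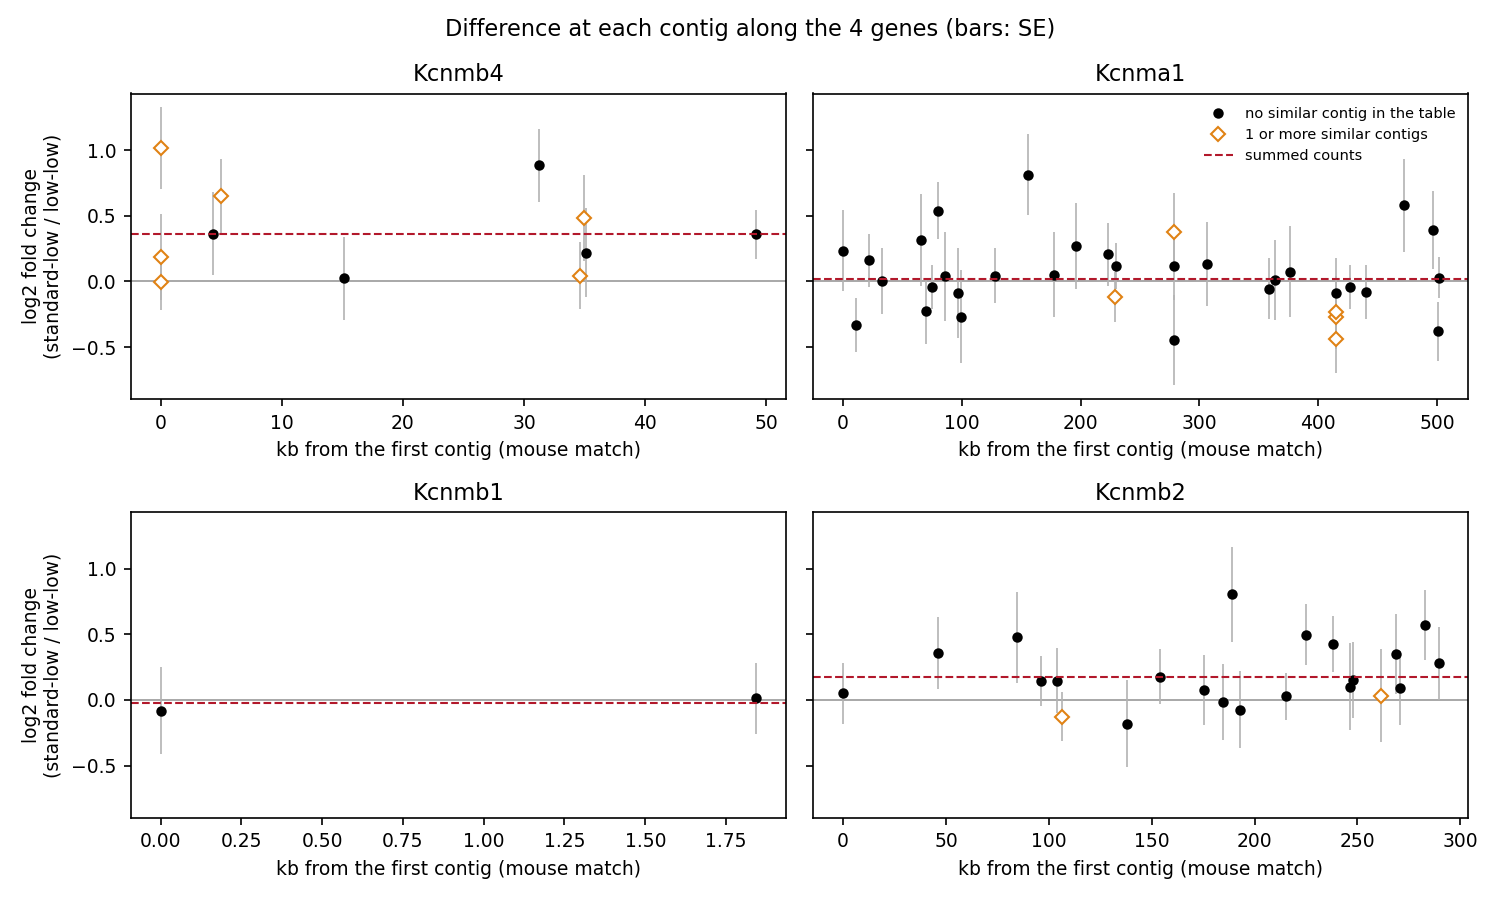
Log2 fold change of standard-low over low-low (y axis, bars SE) at each contig against its distance in kb from the first contig of the gene by mouse match (x axis), with filled circles for contigs that resemble no other and open diamonds for those that do; the dashed line is the value of the summed counts. Kcnmb4 values lie from -0.004 to 1.02, and Kcnma1 values lie on either side of 0.

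Along Kcnma1, which spans 513.9 kb by the distances given in the table, log2 fold changes ran from -0.45 to 0.81. The most heavily captured contig, 2957126, had 8.47, 6.24, 5.47 and 6.51 CPM in standard-low and 6.72, 5.72, 5.06 and 8.60 CPM in low-low. Contig 2339968 came next, with 6.16, 4.64, 4.23 and 6.51 CPM in standard-low and 6.26, 5.72, 4.58 and 3.23 CPM in low-low. The groups overlapped at both.

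The largest positive values in Kcnma1 were 0.81 ± 0.31 (SE) at contig 2879262, 0.58 ± 0.36 at contig 1980912 and 0.54 ± 0.22 at contig 1291186. Contig 2879262 had 2.14, 1.01, 1.41 and 1.69 CPM in standard-low and 1.38, 0.891, 0.642 and 0.614 CPM in low-low. Its groups overlapped, and its mouse match covers 34 of its 484 bases. The largest negative values were -0.45 ± 0.34 at contig 2452157, -0.44 ± 0.26 at contig 3464624 and -0.38 ± 0.23 at contig 283537.

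Contig 1014682 of Kcnma1, whose sequence is printed above and which aligned to mouse along its whole length, was singled out after its values were seen. It had 2.40, 2.61, 2.49 and 1.94 CPM in standard-low and 2.67, 3.12, 2.89 and 3.23 CPM in low-low. It was the only Kcnma1 contig with groups that did not overlap, and it was lower in standard-low (log2 fold change -0.33 ± 0.21, SE).

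In Kcnmb2, which spans 297.7 kb, values ran from -0.18 to 0.80. Contig 1564652, printed above, had 0.77, 1.86, 0.829 and 1.01 CPM in standard-low and 0.535, 0.446, 0.883 and 0.691 CPM in low-low, and was highest in standard-low 2 (log2 fold change 0.80 ± 0.36, SE). Next were contig 906865 at 0.57 ± 0.27 and contig 2272915 at 0.50 ± 0.23. The groups overlapped at all 22 contigs, although they did not for the sum. The most captured Kcnmb2 contig was 1985257, with 4.79, 3.71, 3.23 and 3.63 CPM in standard-low and 4.51, 3.42, 3.69 and 3.46 CPM in low-low. Contig 4355406, with 30 CpG, was lower in standard-low at -0.13 ± 0.19, and contigs 359776 and 527171 stood at -0.18 ± 0.33 and -0.08 ± 0.29.

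The Kcnmb1 contig 362054 had 0.856, 0.759, 0.995 and 1.10 CPM in standard-low and 1.22, 0.743, 1.20 and 0.768 CPM in low-low. Contig 4122549, printed above, had 1.37, 1.43, 1.66 and 1.35 CPM in standard-low and 1.07, 1.56, 1.53 and 1.61 CPM in low-low. The groups overlapped at both contigs.

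Levels between genes were compared per kilobase of contig, a measure that the choice of genes did not use. The mean over the 8 libraries was 3.72 ± 0.21 CPM per kb in Kcnma1, 3.05 ± 0.25 in Kcnmb1, 2.88 ± 0.26 in Kcnmb2 and 2.72 ± 0.41 in Kcnmb4 (SD, n = 8). Kcnma1 was higher than each beta subunit gene in 8 of 8 libraries. The two-sided exact paired permutation p was 0.0078 for each, the smallest that 8 libraries allow (0.016 after Benjamini-Hochberg adjustment over 6 pairs). All libraries measured the same contigs, so the p-values of this comparison cover how repeatably each set was captured, not the spread between contigs. In CPM per kb, single Kcnma1 contigs overlapped those of each beta subunit gene, and Kcnmb1 had only 2 contigs. A difference in level beyond the contigs measured was not tested. Over the 8 libraries pooled, the order among the beta subunit genes was within their spread. Kcnmb1 was above Kcnmb2 by 0.17 ± 0.41 CPM per kb (SD, n = 8; exact permutation p = 0.297 adjusted), above Kcnmb4 by 0.33 ± 0.50 (0.15), and Kcnmb2 was above Kcnmb4 by 0.16 ± 0.23 (0.15). The pooled spread also holds the differences between the groups in Kcnmb4 and Kcnmb2, so it is not the spread between libraries of a group alone. In every low-low library Kcnmb4 was below both Kcnmb1 and Kcnmb2, while in standard-low the order varied between libraries. The comparison of levels between genes was added after the data were seen. It covers only contigs that reached the lowest count of the table, 81 summed over the libraries.

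In low-low Kcnmb4 had the lowest level of the 4 genes, and in standard-low the beta subunit genes lay together. Kcnmb4 held 3.06 ± 0.25 CPM per kb in standard-low and 2.38 ± 0.17 in low-low (SD, n = 4 each). Kcnmb2 held 3.06 ± 0.27 in standard-low and 2.71 ± 0.08 in low-low, and Kcnmb1 3.02 ± 0.27 in standard-low and 3.08 ± 0.26 in low-low. Among all genes with a contig, Kcnmb4 was at percentile 12 of the level per kb, Kcnmb2 at 16.2, Kcnmb1 at 22.3 and Kcnma1 at 53.4.

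CpG content per kb was also highest in Kcnma1, but it was lowest in Kcnmb1, which stood next to Kcnma1 by level. There were 23.1 CpG per kb of contig in Kcnma1, 21.1 in Kcnmb2, 19.9 in Kcnmb4 and 17.8 in Kcnmb1, against a median of 23.3 over all genes. Over the 70 contigs the Pearson correlation of CPM with the number of CpG was 0.79, and over all contigs inside genes it was 0.85. Longer contigs hold more CpG and more reads, so length is shared by these measures. Per kb of contig, the correlation of CPM with CpG was 0.34 over the 70 contigs and 0.38 over all contigs inside genes. The median ratio of variance to mean count within groups was 1.26 over the 70 contigs and 1.23 over all contigs. Pure counting gives a ratio of 1 on average, and a median somewhat below 1 with so few libraries. The median ratio was 1.51 over the Kcnmb4 contigs, 1.40 over those of Kcnma1, 1.17 over those of Kcnmb2 and 0.48 over the 2 of Kcnmb1.

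**Figure D4:**
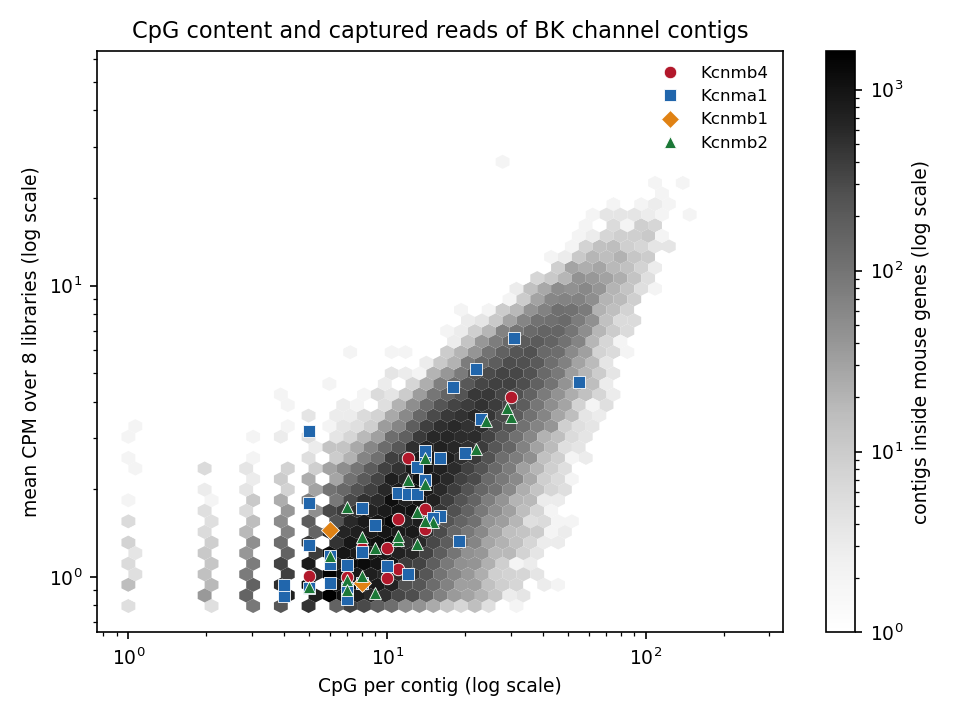
Mean CPM over 8 libraries (y axis, log scale) against CpG per contig (x axis, log scale) for the 70 contigs of the BK channel genes, over a grey density of all contigs inside mouse genes that hold a CpG. The BK channel contigs lie within the cloud of the other contigs, the highest being a Kcnma1 contig with 31 CpG, and a Kcnma1 contig with 5 CpG lies near its upper edge.

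Contigs outside the genes but with one of them as the nearest gene were tested separately. Of 29 such contigs, 0 passed an edgeR adjusted p of 0.05 (lowest adjusted p 0.835), and 2 had an unadjusted p under 0.05, 1 near Kcnma1 and 1 near Kcnmb2, both higher in standard-low. Of all contigs 0.0268% passed and 5.68% had an unadjusted p under 0.05, so the flanking count is near the share of all contigs. DESeq2 and limma voom called 0 of the 29. For Kcnmb2 5 of the 17 outer contigs had a positive log2 fold change, with a median of -0.12. Inside the gene 18 of 22 were positive, but the gene was chosen with this contrast known, and the 2 counts were not tested against each other. For Kcnmb4, contig 2211916 at 4096 bases had a log2 fold change of -0.43 and contig 906575 at 12521 bases 0.20 (edgeR adjusted p = 0.939 and 0.966).

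Further genes of the BK channel pathway were read from a list of 26, drawn up by function with earlier results of these data known, of which 24 had a contig inside, Lrrc38 and Fmr1 being without one. Over their 589 contigs 0 passed an edgeR adjusted p of 0.05, and 34 had an unadjusted p under 0.05, 19 higher and 15 lower. Of all contigs 5.68% did, 2.93% higher and 2.76% lower. Of the 24 gene sums 0 passed, and 4 had an unadjusted p under 0.05, 1 higher and 3 lower, against 6.03% of all genes, 1.71% higher and 4.32% lower. DESeq2 and limma voom called 0 contigs and 0 genes of the list. Their sums had 9 positive and 15 negative log2 fold changes, with a median of -0.03, against -0.03 over all genes.

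Prkg1, the cyclic GMP-dependent kinase that phosphorylates BK channels, had the lowest p among regulators and partners. Its sum over 61 contigs was 114 ± 5.99 CPM in standard-low and 104 ± 3.52 in low-low (SD, n = 4 each; edgeR adjusted p = 0.807), and the groups did not overlap. Among the small and intermediate conductance channels it was Kcnn4, the intermediate one, with 9.34 ± 1.59 CPM in standard-low and 11.7 ± 0.64 in low-low (edgeR adjusted p = 0.807), and here too the groups did not overlap. Of the 24 gene sums 1 lay apart higher in standard-low and 1 lower, against 1.4% and 2.08% of all genes. Among calcium sources it was the T-type channel gene Cacna1h, with 62.9 ± 11.3 CPM in standard-low and 72.3 ± 1.89 in low-low (edgeR adjusted p = 0.807). The log2 fold change was positive for 1 and negative for 8 of these 9 calcium source genes, where 41.4% of all gene sums were positive. The negative values of Cacna1a, Cacna1c, Cacna1d, Itpr1 and Ryr2 were smaller in size than their SE.

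Among gamma subunits the lowest p was in Lrrc26, which shifts BK activation to negative voltages, with 4.09 ± 1.62 CPM in standard-low and 5.71 ± 0.82 in low-low on 1 contig (edgeR adjusted p = 0.807). Among the remaining beta subunit and Slo relatives it was Kcnu1, the sperm potassium channel, with 11.5 ± 1.18 CPM in standard-low and 10.5 ± 1.67 in low-low (edgeR adjusted p = 0.875). The beta 3 subunit gene Kcnmb3 had 3.33 ± 0.34 CPM in standard-low and 3.31 ± 0.34 in low-low.

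Captured DNA does not measure expression, so marker genes could not check the labelled tissue here. Of 24 marker genes for neurons, oligodendrocytes, astrocytes, microglia, endothelium and smooth muscle, 21 had a contig, and 0 genes and 0 of 343 contigs passed with edgeR (2 genes and 17 contigs at an unadjusted p under 0.05, where 6.03% of all gene sums and 5.68% of all contigs were). Summed over its list, oligodendrocyte marker capture was 54.4 to 72.7 CPM in standard-low and 67.7 to 71.4 CPM in low-low. Smooth muscle marker capture was 46.6 to 54.0 CPM in standard-low and 48.7 to 54.4 in low-low, and neuronal 233 to 262 CPM in standard-low and 244 to 254 in low-low. The range was 49.7 to 56.0 CPM in standard-low and 49.2 to 55.3 in low-low for astrocytes, 67.2 to 92.2 in standard-low and 83.0 to 85.6 in low-low for microglia, and 222 to 231 in standard-low and 219 to 228 in low-low for endothelium. The log2 fold change was positive for 0 of 4 oligodendrocyte genes, 0 of 3 microglial, 1 of 3 astrocyte, 2 of 4 neuronal, 2 of 4 smooth muscle and 3 of 3 endothelial genes, against 41.4% of all gene sums. Standard-low 2, the highest library for Kcnmb4 and Kcnmb2, was the lowest standard-low library for 5 of the 6 marker sums, with 54.4 CPM for oligodendrocytes and 67.2 CPM for microglia. This was not particular to marker genes. In the wider list standard-low 2 was likewise the lowest standard-low library for Ryr1, Cacna1a and Cacna1h, and the highest for Ryr2, Ryr3 and Prkg1. Without standard-low 2 the log2 fold change was 0.30 for Kcnmb4 and 0.11 for Kcnmb2. Gfap, P2ry12 and Cldn5 had no contig. The part of these cell types in the Kcnmb4 difference was not tested.

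The genes whose summed CPM followed Kcnmb4 most closely across the 8 libraries were, among 8596 genes with at least 50% of its level, Tprg (Pearson r = 0.97 on log2 CPM), Deptor (0.96), Rsu1 (0.96), A830031A19Rik (0.96) and Lmbrd1 (0.93). The 8 points fall into the 2 groups, so genes that differ between the groups come first in such a ranking. Tprg had 31.5 ± 0.41 CPM in standard-low and 29.2 ± 0.70 in low-low (SD, n = 4 each). The correlation with Kcnmb4 was 0.83 for Kcnmb2 and -0.11 for Kcnma1.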

How the data were processed

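The deposited table holds, per the file headers, 1 read count per assembled contig and library, and the counts were used unscaled as the authors deposited them. Per the submitters' processing notes FastQC and BWA were used, while versions, the contig assembler, the treatment of reads with several placements and the mouse build are not stated. The header parts library names by spaces and the values by tabs, so columns follow the order of the header. Replicate numbers come from the labels, which do not say that libraries came from separate animals or litters, so p-values measure the spread between these libraries, which may in part be technical.

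Contigs and counts summed per gene (distance 0) were compared by edgeR 4.0.16 under R 4.3.3 (TMM factors, quasi-likelihood, two-sided, Benjamini-Hochberg over the whole table, threshold 0.05). Requiring a mean of 10 counts removed no contig. Alternatives used DESeq2 1.42.0, limma 3.58.1 voom, another scaling or filter, a replicate term, and each library left out. Similar contigs were those with a BLAST 2.17.0 match at E of at most 1e-10. Permutation tests used scipy 1.17.1. The tests were tested on simulated data, drawn with a single common spread between libraries, and no outcome of that is used here. The members and lists were chosen with earlier results of these data known. Named contigs were all of a gene with up to 6, otherwise the 2 with the highest mean CPM and the 3 with the largest positive and negative log2 fold change. In the wider list the gene with the lowest p of each subgroup was named.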

Additional observations from a re-analysis of the deposited data

Results flagged for a closer look

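Among 62 groups of 4 libraries examined, 6 held a value far from the other 3, by a gap of most of the group's range (Dixon's 95% limit), and chance alone gives about 1 in 20. Summed Kcnmb4 capture was 22.7 CPM in standard-low 2, above 19.3 to 19.6 in the other standard-low libraries. The Kcnma1 contig 1980912 had 0.922 CPM in low-low 4, above 0.562 to 0.611 in the other low-low libraries. The Kcnma1 contig 3464624 had 1.97 CPM in standard-low 1, above 1.24 to 1.35 in the others of that group. The Kcnma1 contig 283537 had 1.24 CPM in standard-low 3, below 2.28 to 2.45. The Kcnmb1 contig 4122549 had 1.07 CPM in low-low 1, below 1.53 to 1.61. The gamma subunit gene Lrrc26 had 1.69 CPM in standard-low 2, below 4.71 to 5.22.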

How the results depend on the processing

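Of the 548060 contigs 147 passed with edgeR, against 32 with DESeq2, 50 with limma voom, 82 with a minimum mean of 20 counts, and 68 to 207 when 1 library was left out (68 without low-low 2, 97 without standard-low 4). Of the gene sums 1 passed, against 2 with DESeq2, 0 with limma voom and 0 to 30 on dropping a library (30 without standard-low 3, 8 without standard-low 2, 0 without any other single library). No contig or gene sum of the 4 BK channel genes, of the wider list or of the flanking contigs passed in any of these settings. The Kcnmb4 log2 fold change of 0.36 stayed between 0.30 and 0.41 when 1 library was left out. It was 0.23, with overlapping groups, under the stricter filter, which kept 3 of the 11 Kcnmb4 contigs. Kcnmb2 stayed between 0.11 and 0.21 in every setting, while Kcnma1 (-0.03 to 0.05) and Kcnmb1 (-0.08 to 0.03) took either sign, and no Kcnmb1 contig passed the stricter filter. Of the 22 named contigs, 13 kept their sign in all settings run and 9 did not. All 297 values were within 1 SD of the reported one, the SD being that between libraries of a group. Leaving out 1 of 4 libraries moves a group mean by less than that SD, so this count could hardly come out otherwise. Deviations from the group means had correlations from -0.01 to 0.03 between same-numbered libraries and from -0.05 to 0.03 between the others. The numbers were therefore not used to pair libraries. Counting noise keeps such correlations small, so they cannot exclude a pairing. With the replicate number as a block 206 contigs and 3 gene sums passed, and the Kcnmb4 log2 fold change was 0.36. The 70 contigs had a median of 18.4 counts per library, which limits what a single contig can show.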

Other observations

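Among the contigs of the 4 genes, the Kcnma1 contig 4587905 had the most captured reads per CpG, with 5 CpG and 0.632 CPM per CpG, at percentile 99.9 of all contigs inside genes. Its level was 3.34 ± 1.15 CPM in standard-low and 2.98 ± 0.39 in low-low (SD, n = 4 each), and it resembled 0 other contigs. The Kcnma1 contig 431009 held the most CpG of the 70 contigs, 55 in 1656 bases, with a mouse match of 29 bases. It had 4.62 ± 1.02 CPM in standard-low and 4.75 ± 0.14 in low-low (SD, n = 4 each). Both were picked with their values in view.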
